A study of Homo sapiens with 36 samples.

Results

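The 10 genes described here make, store, move or sense glucose in liver cells: PCK1, PCK2, PC and FBP1 of gluconeogenesis, GPI, PKLR of glycolysis, PYGL and PPP1R3C of glycogen handling, the glucose transporter gene SLC2A2, and the glucose-responsive gene TXNIP. They were taken by symbol from a table of 18932 RefSeq genes, and all 10 were found and passed the filter on low counts in every fit. The choice was made with earlier results of these data known, so shares of these genes set beside all genes describe and do not test. The counts come from RNA-seq of HepG2, an established human hepatoma cell line, in 12 groups of 3 samples. The groups were vehicle control (Ctrl), docosahexaenoic acid (DHA, 50 µM, an n-3 fatty acid), propionate (PRO, 70 µM, a short-chain fatty acid), protocatechuic acid (PCA, 20 µM, a phenolic acid) and the pairs DHA+PRO and DHA+PCA, with cells collected after 6 h or 24 h. All groups shared serum-free DMEM, DHA was given bound to bovine serum albumin from an ethanol stock, PCA came in acidified DMSO and PRO in water, and Ctrl cells received albumin, ethanol and DMSO. Each sample pooled the RNA of 3 culture wells from 1 of 3 independent experiments on 1 cell line, so the spread between samples is that between cultures and not between donors.

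As background, gluconeogenesis turns pyruvate back into glucose. Pyruvate carboxylase (PC) makes oxaloacetate in mitochondria, the phosphoenolpyruvate carboxykinases PCK1 (cytosol) and PCK2 (mitochondria) turn it into phosphoenolpyruvate, fructose-1,6-bisphosphatase (FBP1) removes a phosphate later in the route, and glucose-6-phosphate isomerase (GPI) works in both this route and glycolysis. PKLR is the pyruvate kinase of liver and red cells, PYGL the liver glycogen phosphorylase, and PPP1R3C a subunit that brings protein phosphatase 1 to glycogen. SLC2A2 encodes GLUT2, the main glucose transporter of hepatocytes, and TXNIP a protein induced by glucose that restrains glucose uptake.

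The 36 libraries held 4659744 to 42326734 counts (median 7034007). Replicate 2 of DHA+PRO at 24 h, called the deep library below, had 6.22 times the median count of the others of its time. The 9 hepatocyte genes checked had median RPKM (reads scaled by gene length and library size) of 95.5 to 11660. Of 9 genes of blood, vessel, connective tissue and bile duct cells, 7 had medians under 1 RPKM and CD68 the highest, 27.15. The summed level of those 9 genes ran from 20.0 to 39.9 RPKM over all samples, with every group of 24 h between 24.3 and 31.6. Every group held libraries of both series of library numbers found in the labels, and the within-series values below set apart the earlier series (replicates 1 and 2 as a rule) and the later one (replicate 3 of each group, plus 1 further library, DHA+PRO at 6 h replicate 2).

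Levels are compared between genes per length, in RPKM. PCK2 and GPI stood highest, with median RPKM over 36 samples of 86.8 (range 58.5 to 138) and 82.2 (69.4 to 92.7), and their order was not stable: PCK2 lay above GPI in 18 of 36 samples. TXNIP followed at 52.0 (36.3 to 69.1), PYGL at 38.9 (24.4 to 49.6) and PC at 18.1 (14.3 to 21.2). These 3 steps, from GPI to TXNIP to PYGL to PC, held in all 36 samples.

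Lower in the order, PKLR had a median of 13.7 RPKM (7.57 to 22.1) and lay under PC in 28 of 36 samples. PPP1R3C at 6.53 (3.53 to 10.6), PCK1 at 6.04 (3.51 to 12.9) and SLC2A2 at 5.66 (3.62 to 8.35) could not be set in order, since PPP1R3C was above PCK1 in 17 of 36 samples and PCK1 above SLC2A2 in 20. FBP1 was the lowest in all 36 samples, at 1.30 RPKM (0.615 to 2.61), with only 6 to 92 counts per library, so that its values carry the largest counting error. The mitochondrial PCK2 thus had the higher level of the 2 carboxykinase genes in every library, since its lowest RPKM, 58.5, was above the highest of PCK1, 12.9.

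**Figure D1:**
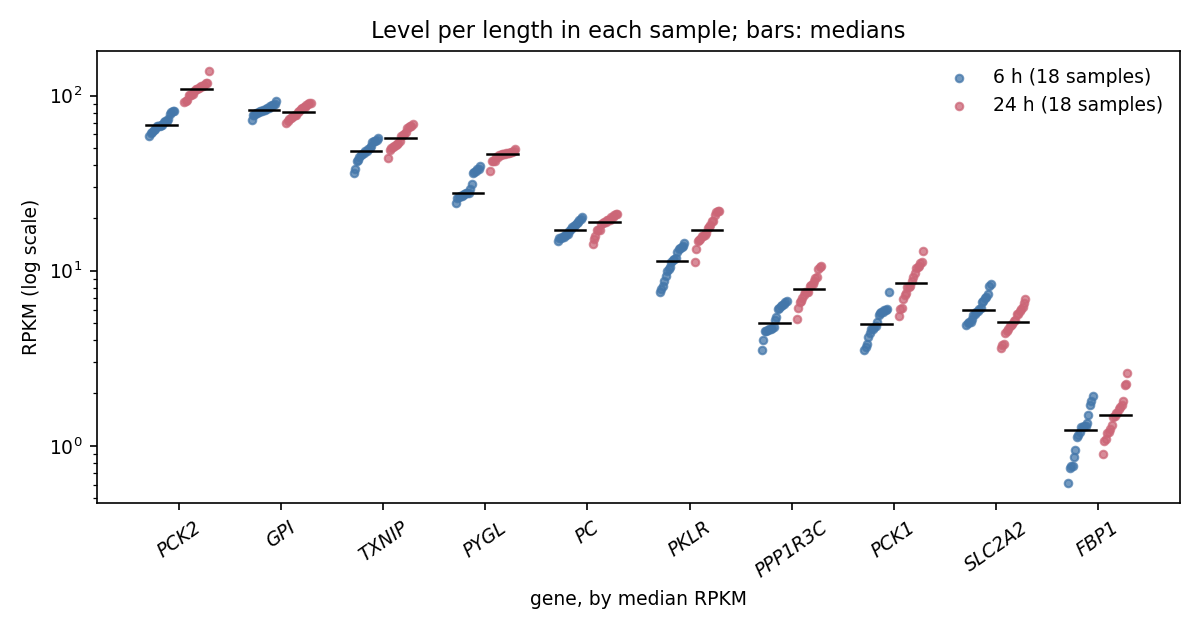
Level of the 10 genes in RPKM (vertical axis, log scale) in each of 36 samples, 18 of 6 h (blue) and 18 of 24 h (red), with the median of each time as a black bar. PCK2 and GPI lie highest and FBP1 lowest, and the 24 h points of PCK2, PYGL, PKLR, PPP1R3C and PCK1 lie mostly above those of 6 h.

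The first question of the design was what DHA, PRO and PCA did to these genes. A gene was called where the adjusted p (Benjamini-Hochberg over all genes tested, edgeR quasi-likelihood F test) was at most 0.05 and the average log2 CPM (counts scaled to library size) was above 0. Of the 10 genes, TXNIP fell with DHA+PRO at 24 h, and no other call was made in 20 treatment comparisons. PRO went with the lowest p-values, for TXNIP and PPP1R3C. The comparisons of 1 time share their Ctrl or DHA samples, so their values are given side by side and not as independent results.

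At 24 h, 1 of 100 gene tests was called and 14 had an unadjusted p under 0.05, against 5.79% of all tests in those 10 comparisons. At 6 h none was called by edgeR or by the DESeq2 Wald test, and 6 of 100 had an unadjusted p under 0.05, against 1.86% of all tests. Among all genes, DHA, DHA+PRO and DHA+PCA against Ctrl called 0.193%, 0.395% and 0.286% at 24 h and 0.0168% each at 6 h. PRO or PCA against Ctrl and the co-treatments against DHA called 0% at either time. The pooled effects, which average a compound with and without DHA, called 1.23% for DHA, 0.00841% for PRO and 0% for PCA at 24 h, and 0.202%, 0% and 0% at 6 h.

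TXNIP (chr1:145438438-145442628, hg19) was the gene that moved most steadily with PRO. At 24 h its CPM was 182.4, 196 and 199 with Ctrl, 173.7, 175.7 and 178.9 with DHA, and 156.4, 204 and 198.5 with PCA. With PRO it was 150.5, 162.5 and 159.1, and with DHA+PRO 143.8, 148.8 and 129.8. All 6 samples with PRO lay below all 6 of Ctrl and DHA. No other of the 10 genes lacked overlap in that comparison, and 0.177% of all genes did, counted in either direction. DHA+PCA gave 152.2, 192.4 and 154.9, a spread that overlapped both.

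TXNIP was lower by 0.45 on the log2 scale with DHA+PRO than with Ctrl at 24 h (fold 0.732, SE 0.10, 95% interval −0.66 to −0.24, adjusted p = 0.0439 by edgeR). Within the earlier library series the log2 ratio was −0.37 (2 samples against 2) and within the later −0.62 (1 against 1). The change kept its size when any of the 6 samples was left out (−0.50 to −0.40), but the call was lost each time, with adjusted p from 0.0878 to 0.323 in edgeR. Without the deep library it was −0.50 at an adjusted p of 0.105. NBPF10 and NBPF20, whose spans in the deposited table run over TXNIP, had medians of 22 and 15.5 counts.

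The other TXNIP comparisons with PRO pointed the same way without a call in the main fit. The log2 fold change of PRO against Ctrl was −0.30 at 24 h (adjusted p = 0.782 in edgeR) and −0.36 at 6 h (adjusted p = 1), and that of DHA+PRO against DHA at 24 h was −0.32 (adjusted p = 0.999). Averaged over both backgrounds, PRO gave −0.31 at 24 h (95% interval −0.46 to −0.16, adjusted p = 0.516 in edgeR and 0.0282 in DESeq2) and −0.27 at 6 h (−0.43 to −0.10, adjusted p = 1). With the replicate number as a block, the 24 h value was called (adjusted p = 0.0234 in edgeR). The labels do not say what a number shares. With DHA, TXNIP at 24 h was also lower, by −0.13 against Ctrl (adjusted p = 0.958 in edgeR) and −0.15 pooled (adjusted p = 0.324), neither called. At 6 h TXNIP CPM ran from 107.2 to 127.2 with PRO and from 112.3 to 142.6 with DHA+PRO, against 137.5 to 163.3 with Ctrl and 138.9 to 151.8 with DHA. The PRO samples of 6 h lay below all Ctrl samples, while those of DHA+PRO overlapped them.

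PPP1R3C (chr10:93388197-93392858, hg19) showed the largest difference of the 10 genes between PRO and Ctrl. At 24 h its CPM was 23.49, 26.39 and 27.34 with Ctrl and 16.95, 15.68 and 13.64 with PRO, with no overlap. DHA gave 18.78, 22.44 and 23.72, and DHA+PRO 19.54, 17.36 and 19.4, which lay below Ctrl and overlapped DHA. The PCA samples, at 21.72, 17.98 and 19.39, also lay below Ctrl, and DHA+PCA gave 21.26, 27.09 and 20.94.

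The log2 fold change of PPP1R3C with PRO against Ctrl at 24 h was −0.74 (fold 0.598, SE 0.14), which stayed above the threshold in edgeR (adjusted p = 0.37) and passed it in DESeq2 (adjusted p = 0.0284) and without the filter on low counts (adjusted p = 0.029). Within the library series the log2 ratios were −0.61 (2 against 2) and −1.003 (1 against 1). Averaged over both backgrounds it was −0.48 at 24 h (95% interval −0.69 to −0.28, adjusted p = 0.251) and −0.21 at 6 h (−0.52 to 0.11, adjusted p = 1). With the replicate number as a block, the 24 h value was called (adjusted p = 0.0389 in edgeR). The difference with PRO was smaller when DHA was present, by 0.52 on the log2 scale (95% interval 0.10 to 0.93), but that interaction was not called (adjusted p = 0.955 in edgeR).

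**Figure D2:**
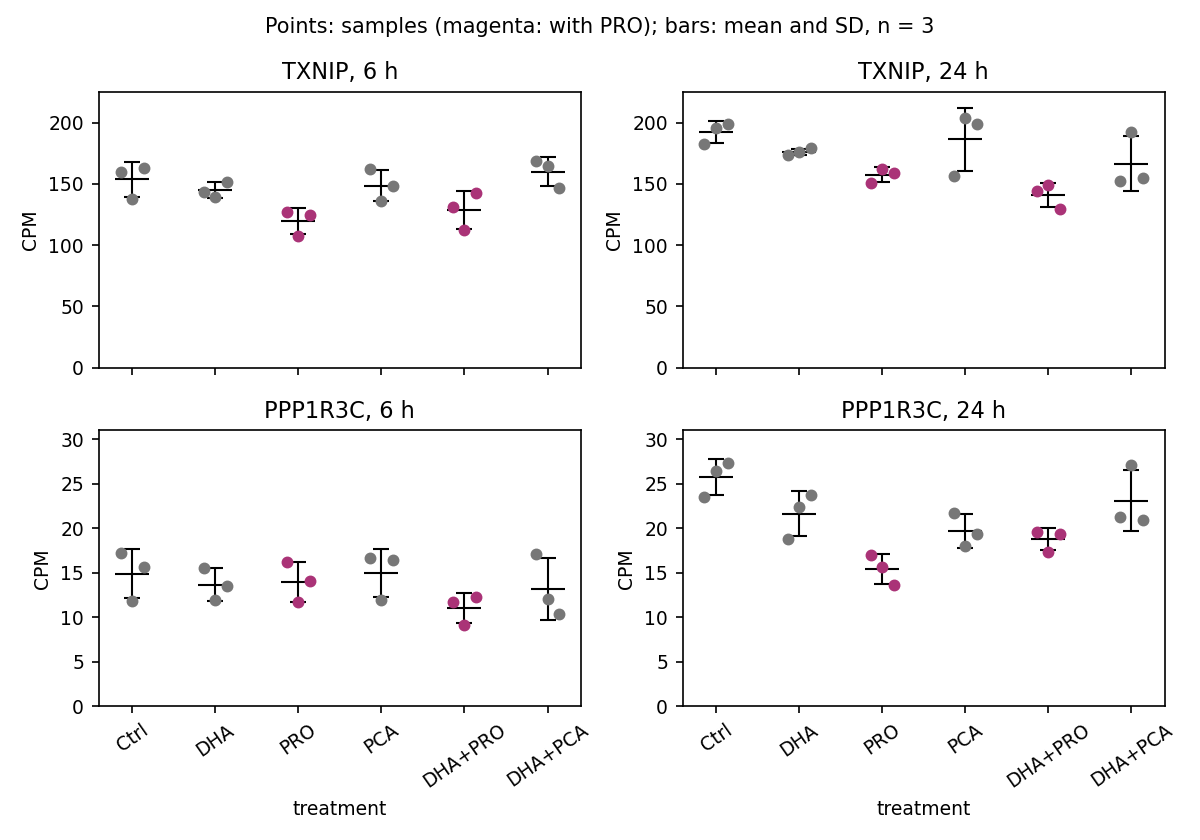
CPM of TXNIP (upper panels) and PPP1R3C (lower panels) in each sample of the 6 treatments at 6 h (left) and 24 h (right), with mean and SD of 3 samples as bars and samples with PRO in magenta. At 24 h the TXNIP samples with PRO lie between 129.8 and 162.5, below all Ctrl and DHA samples (173.7 to 199), and the PPP1R3C samples with PRO alone lie between 13.64 and 16.95.

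The promoters of TXNIP and PPP1R3C are shown because these genes had the lowest p-values with PRO. The windows run from 250 bases before to 50 bases after the start site and are RefSeq sequences on GRCh38.p14, a build later than that of the counts. They lie at chr1:145996530-145996829 for TXNIP and chr10:91633022-91633321 for PPP1R3C, both on the minus strand of that build, and are written 5′ to 3′. TXNIP is on the plus strand in the hg19 table. Capitals mark matches on either strand to the motifs searched.
TXNIP promoter: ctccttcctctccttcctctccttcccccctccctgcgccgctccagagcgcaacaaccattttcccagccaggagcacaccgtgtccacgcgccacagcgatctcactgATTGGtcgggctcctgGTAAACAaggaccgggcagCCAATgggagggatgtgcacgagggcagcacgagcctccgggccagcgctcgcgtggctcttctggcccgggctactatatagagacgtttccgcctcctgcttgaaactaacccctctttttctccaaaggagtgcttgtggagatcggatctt
PPP1R3C promoter: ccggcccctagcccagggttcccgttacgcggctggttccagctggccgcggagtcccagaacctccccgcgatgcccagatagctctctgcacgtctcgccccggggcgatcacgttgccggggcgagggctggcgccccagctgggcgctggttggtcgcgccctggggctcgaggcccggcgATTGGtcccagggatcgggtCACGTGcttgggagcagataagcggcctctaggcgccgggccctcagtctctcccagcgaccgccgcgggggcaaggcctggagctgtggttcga

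In the TXNIP window the capitals are the forkhead core GTAAACA, 124 bases before the start site, and CCAAT on each strand, 140 and 105 bases before it. In the PPP1R3C window they are the E-box CACGTG, 45 bases before the start site, and CCAAT on the opposite strand, 65 bases before it. Windows were found for 9 of the 10 genes, 13 windows in all, and PCK1 had none. CACGTG was in 2 of the 13 windows (PPP1R3C and the first of PKLR) and in 7.26% of all 35116 windows of the table, GTAAACA in 1 of 13 and 3.42%, and CCAAT in 6 of 13 and 34.6%. The cAMP response element TGACGTCA (1.85% of all windows), the amino acid response element TGATGNAAN (3.61%) and the direct repeat 1 (0.0228%) matched none of the 13, and the shorter core TGACG, which lies within the full cAMP element, matched 1 (the first of PC) and 24.6% of all. Each motif was searched only in its exact form, so a window without a match may still hold a looser form of it. These matches are letters in a window and not measured binding.

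PCK1 (chr20:56136137-56141513, hg19), the carboxykinase of the cytosol, was the gluconeogenic gene with the lowest p for DHA. At 24 h its CPM was 26.01, 28.04 and 30.03 with Ctrl and 19.92, 19.62 and 21.7 with DHA, with no overlap. The log2 fold change was −0.46 and was not called (adjusted p = 0.854 in edgeR). For 3 samples against 3, a lack of overlap gives an exact permutation p of 0.1 at best, here and for the other genes. The share of all genes without overlap in such comparisons was not counted. Over both co-treatments as well, the 9 samples with DHA ran from 16.2 to 24.8 (median 21.6), and the 9 without ran from 14.8 to 34.8 (median 28.04). Replicate 1 of PRO and of PCA, at 14.76 and 16.37, were the lowest of the samples without DHA, and the rest were at 26.01 or above.

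The pooled log2 fold change of PCK1 with DHA was −0.32 at 24 h (95% interval −0.59 to −0.05, adjusted p = 0.365 in edgeR) and −0.28 at 6 h (−0.55 to 0.00, adjusted p = 1). In 18 fits that left out a sample the 24 h value lay between −0.41 and −0.24, with adjusted p up to 0.673 in edgeR. It was called in 1 of them, without replicate 1 of PRO at 24 h (−0.41, adjusted p = 0.0468). The earlier and later library series gave −0.33 and −0.32 at 24 h. With PRO or PCA the pooled effect on PCK1 lay between −0.09 and 0.06 at both times, and all 4 intervals contained 0.

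The other genes of gluconeogenesis had smaller or less certain differences. PCK2 (chr14:24563340-24573341) was higher with DHA at 24 h by 0.13 on the log2 scale (95% interval 0.00 to 0.26, adjusted p = 0.5), the opposite sign to PCK1, with 217 to 326 CPM in the 9 samples with DHA and 221 to 267 in the 9 without. PC (chr11:66615997-66725847), which overlaps LRFN4 on the opposite strand in libraries that do not keep strand, had pooled effects between −0.13 and 0.11 for the 3 agents and both times. GPI (chr19:34855645-34893318) stayed within −0.05 to 0.09 in the same 6 effects. All adjusted p-values for these pooled effects of PCK2, PC and GPI were 0.5 or more.

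FBP1 (chr9:97365421-97402531) was measured at 0.916 to 3.89 CPM, and its pooled effect of PCA had opposite signs at the 2 times. It was −0.60 at 6 h (95% interval −1.13 to −0.07, adjusted p = 0.999 in edgeR) and 0.50 at 24 h (−0.02 to 1.01, adjusted p = 1). CPM at 6 h was 1.93 to 2.86 with Ctrl, 0.916 to 1.94 with PCA and 1.12 to 1.78 with DHA+PCA. Within the earlier and later library series the 24 h log2 ratio was 0.22 and 0.89. The difference between times was 1.10 on the log2 scale (95% interval 0.40 to 1.79) and was not called (adjusted p = 1 in edgeR).

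PKLR (chr1:155259084-155271225), the pyruvate kinase gene, was lower with PRO at 24 h by 0.41 on the log2 scale against Ctrl (adjusted p = 0.782 in edgeR) and by 0.26 in the pooled effect (95% interval −0.49 to −0.04, adjusted p = 0.811). Its CPM was 37.1 to 53.8 with Ctrl and 27.9 to 43.6 with PRO, which overlapped, and 47.6 to 54.9 with PCA. At 6 h the pooled effect of PRO was 0.03. HCN3 overlaps PKLR on the opposite strand, with a median of 158 counts, and reads of the shared 556 bases cannot be told apart.

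PYGL (chr14:51371935-51411248) and SLC2A2 (chr3:170714137-170744768) showed no treatment effect past an unadjusted p of 0.05. Pooled effects on PYGL lay between −0.10 and 0.05. For SLC2A2 the largest was 0.21 with PRO at 24 h (95% interval −0.08 to 0.50). Its CPM at 24 h was 20.2 to 22.4 with PRO alone and 12.45 to 19.5 with Ctrl, without overlap (adjusted p = 0.826 in edgeR), and 16.7 to 19.6 with DHA+PRO.

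**Figure D3:**
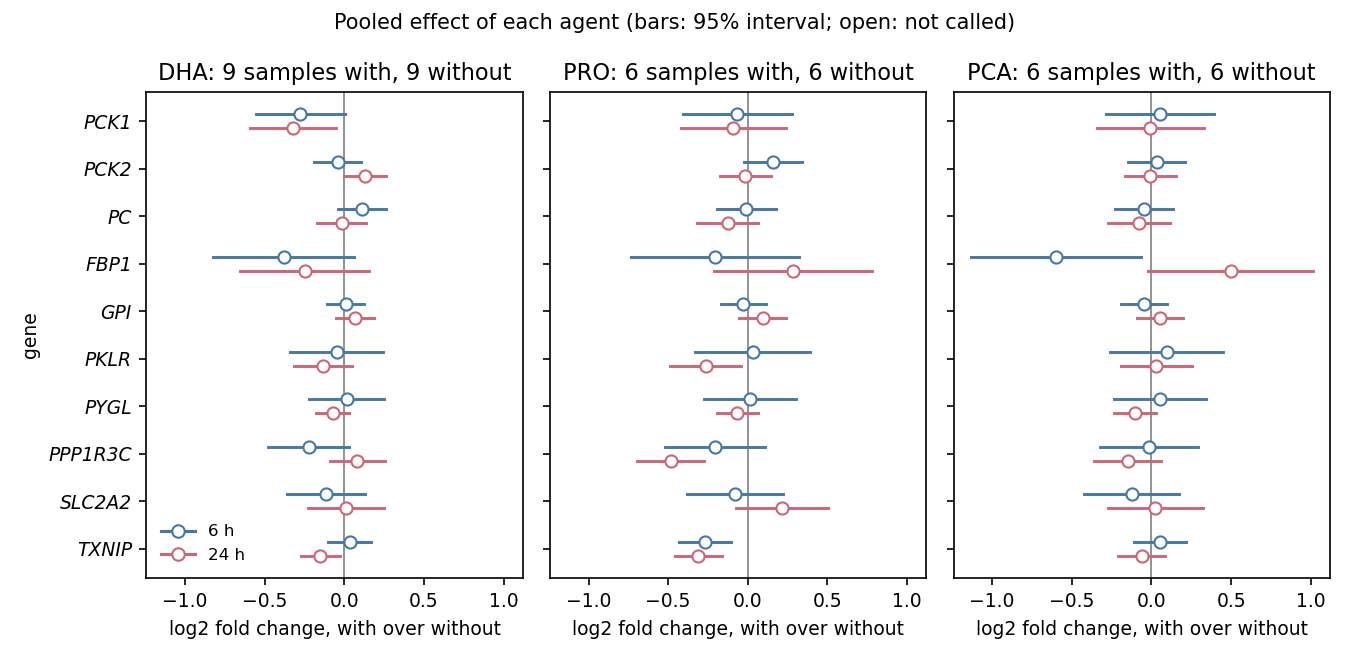
Pooled log2 fold change of each gene with DHA (left), PRO (middle) and PCA (right), at 6 h (blue) and 24 h (red), with 95% intervals as bars; each effect compares samples with the agent against the matching samples without it. All points are open, which marks no call, and the TXNIP intervals for PRO lie below 0 at both times.

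In the pooled effects at 24 h, 3 of 10 genes had an unadjusted p under 0.05 for DHA (PCK1, PCK2 and TXNIP, against 9.88% of all genes), 3 for PRO (TXNIP, PPP1R3C and PKLR, against 5.52%) and none for PCA (against 4.47%). In the single comparison of PRO with Ctrl at 24 h the same 3 genes had one (against 6.02%). At 6 h the counts were 0 for DHA (2.88%), 1 for PRO (TXNIP, 1.41%) and 1 for PCA (FBP1, 0.994%). The median log2 fold change of the 10 genes with pooled PRO at 24 h was −0.08, against −0.004 for all genes, and the median size regardless of sign was 0.17 against 0.07. For pooled DHA at 24 h the median size was 0.11 against 0.07, and for pooled PCA 0.06 against 0.07.

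Whether an effect depended on a second factor was tested by 7 interactions, 6 of them added after the data were seen: DHA by PRO and DHA by PCA at each time, and the change of each pooled effect from 6 h to 24 h. None of 70 gene tests was called by edgeR or DESeq2, and 5 had an unadjusted p under 0.05, against 2.58% of all tests. These interactions called 0% of all genes. For the change of the pooled DHA effect over time 2 of 10 had one, against 3.05% of all genes: TXNIP, whose pooled DHA effect was lower at 24 h by 0.19 on the log2 scale, and PPP1R3C, where it was higher by 0.30, both at an adjusted p of 1 in edgeR. For PPP1R3C the pooled effect was −0.22 at 6 h and 0.08 at 24 h. DHA against Ctrl alone went the other way, with −0.13 at 6 h and −0.25 at 24 h. For TXNIP the pooled effect was 0.03 at 6 h and −0.15 at 24 h, while DHA against Ctrl alone gave −0.09 and −0.13, closer to each other.

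Time in culture separated the samples far more than any agent. Without DHA (Ctrl, PRO and PCA, 9 samples of 24 h against 9 of 6 h), 7 of the 10 genes rose and SLC2A2 fell, and with DHA 6 rose and none fell. PCK1, PCK2, PKLR, PYGL, PPP1R3C and TXNIP rose in both. Among all genes 48.4% were called without DHA (24.3% higher and 24.1% lower at 24 h) and 46% with DHA (22.9% higher and 23% lower), so that a call was common in this comparison. Their median log2 fold change was 0.40 without and 0.49 with DHA, against −0.01 for all genes in both. The summed level of the 9 hepatocyte genes also moved with time, from 20770 to 26490 RPKM in the samples of 6 h to 24110 to 29270 in those of 24 h, and its part in these changes was not tested.

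PCK1 showed the largest rise without DHA. Its CPM was 11.9 to 20.4 (median 15.5) at 6 h and 14.8 to 34.8 (median 28.04) at 24 h, which overlapped through replicate 1 of PRO and PCA. The log2 fold change was 0.80 (SE 0.14, adjusted p = 1.31e-05 in edgeR). With DHA the 9 samples of 24 h, 16.2 to 24.8 CPM, all lay above the 9 of 6 h, 9.42 to 16.1, and the rise was 0.75 (adjusted p = 6.22e-05).

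PCK2 rose with no overlap in either set. It went from 144 to 194 CPM (median 168) at 6 h to 221 to 267 (median 239) at 24 h without DHA, a log2 fold change of 0.55 (SE 0.07, adjusted p = 4.86e-08). With DHA it went from 138 to 194 to 217 to 326, a log2 fold change of 0.71 (adjusted p = 2.01e-10). Both carboxykinase genes thus rose, the abundant mitochondrial one and the scarcer cytosolic one. The intervals of their log2 fold changes, 0.41 to 0.69 for PCK2 and 0.52 to 1.09 for PCK1 without DHA, overlapped.

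PC and FBP1 moved less. PC rose by 0.18 on the log2 scale without DHA, just inside the threshold (adjusted p = 0.0471 in edgeR), and the call was lost in 15 of 18 fits that left out a sample, without the low-count filter (adjusted p = 0.0743) and with the deep library thinned (adjusted p = 0.058). With DHA it was 0.04 (95% interval −0.11 to 0.20). FBP1 had 0.34 without DHA (−0.04 to 0.72, adjusted p = 0.135) and 0.46 with it (0.05 to 0.87, adjusted p = 0.0587), and its log2 ratios without DHA differed between the library series, 0.12 in the earlier and 0.65 in the later. The FBP1 value with DHA passed the threshold under upper-quartile scaling (adjusted p = 0.0432 in edgeR), with library series as a term (0.0415) and with the deep library thinned (0.044), and in 4 of 18 fits that left out a sample (lowest adjusted p = 0.0295). Without DHA it passed once, at 0.60 (adjusted p = 0.0414 in edgeR), with all samples numbered 1 left out, a choice made after seeing the data. GPI was at −0.06 and −0.01, with both intervals inside −0.17 to 0.11.

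PKLR rose by 0.69 without DHA (27.99 ± 4.91 CPM at 6 h and 45.3 ± 9.595 at 24 h, mean ± SD, n = 9; adjusted p = 1.87e-05 in edgeR) and by 0.59 with DHA (adjusted p = 1.64e-04). PYGL, which releases glucose units from glycogen, rose by 0.61 without DHA (adjusted p = 1.08e-06) and 0.51 with DHA (adjusted p = 2.09e-05). At 6 h its samples fell in sets that the treatments do not mark: replicate 1 of all 6 treatments lay between 99.55 and 109.1 CPM and the other 12 samples between 67.1 and 85.52. At 24 h the 18 samples ran from 101 to 136 CPM with no such gap. With all samples numbered 1 left out, a choice made after seeing this, the rise was 0.79 without and 0.72 with DHA.

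PPP1R3C rose by 0.44 without DHA (14.6 ± 2.28 to 20.3 ± 4.77 CPM, n = 9, adjusted p = 5.74e-04 in edgeR). With DHA it rose by 0.74 (12.6 ± 2.48 to 21.2 ± 2.94 CPM, no overlap, adjusted p = 5e-07). The treatments within a set differed. Mean CPM went from 14.91 to 25.74 with Ctrl, but from 13.96 to 15.42 with PRO and from 15.01 to 19.69 with PCA. It went from 13.66 to 21.65 with DHA alone, 11 to 18.77 with DHA+PRO and 13.19 to 23.1 with DHA+PCA. The larger value of the DHA set thus does not show a larger rise than in Ctrl. TXNIP rose by 0.35 without DHA (141 ± 19.3 to 179 ± 21.5 CPM, adjusted p = 1.94e-05 in edgeR) and by 0.16 with DHA (adjusted p = 0.0359). The call with DHA was lost in 9 of 18 fits that left out a sample, without the low-count filter and with the deep library thinned. Mean CPM of TXNIP went from 153.6 to 192.5 with Ctrl and from 144.6 to 176.1 with DHA alone. It went from 128.8 to 140.8 with DHA+PRO and from 160 to 166.5 with DHA+PCA. The smaller value of the DHA set thus lay mostly in the co-treatments. SLC2A2 was the gene that fell, by 0.32 on the log2 scale without DHA (22.1 ± 4.62 to 17.8 ± 3.39 CPM, adjusted p = 0.0258). With DHA it was −0.21 (95% interval −0.46 to 0.04), and −0.32 to −0.15 in 18 fits that left out a sample. It was called in 1 of these, without replicate 2 of DHA at 24 h (−0.32, adjusted p = 0.0266 in edgeR). The call without DHA was lost in 4 of 18 fits that left out a sample, those without replicate 2 of PRO (−0.23) or of PCA (−0.25) at 6 h and without replicate 2 of Ctrl (−0.28) or replicate 1 of PCA (−0.28) at 24 h.

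**Figure D4:**
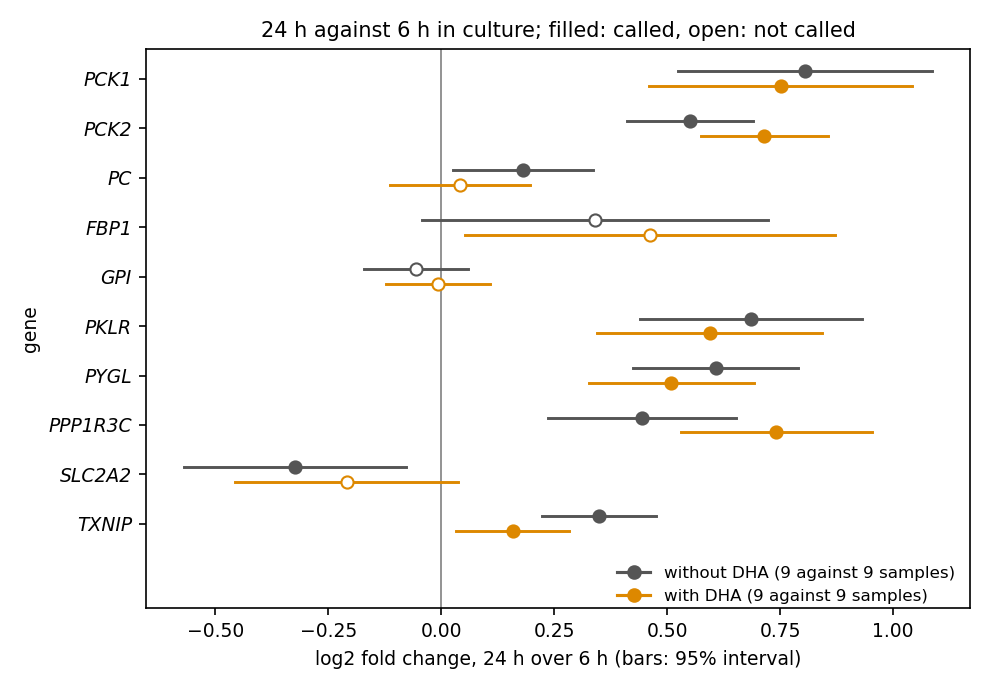
Log2 fold change from 6 h to 24 h of each gene without DHA (grey) and with DHA (orange), 9 samples against 9, with 95% intervals as bars; filled points were called. PCK1, PCK2, PKLR, PYGL and PPP1R3C lie between 0.44 and 0.80, GPI near 0 and SLC2A2 below 0.

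Samples of the 2 times did not overlap for 2 of 10 genes without DHA (PCK2 and PYGL, against 11.3% of all genes) and for 3 with DHA (PCK1, PCK2 and PPP1R3C, against 11.7%). Over the 12 group means of log2 CPM, which share the step between times, Pearson's r between the genes that rose was highest for PCK2 and PYGL (0.951) and for PCK1 with PYGL (0.936) and PKLR (0.931). SLC2A2 ran opposite to PKLR (r = −0.887). GPI had negative r with 8 of the other 9 genes, the lowest with TXNIP (−0.654). In bulk RNA, a change in the RNA per cell and a change in the share of cells that express a gene cannot be told apart.

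The genes of the whole table most like each member over these 12 means were MVD and TMEM97 for PCK1 (r = 0.989 and 0.984), UHRF1 and SLC51A for PCK2 (0.988 and 0.987) and SLC6A4 and P4HA1 for PYGL (0.994 and 0.991). PKLR was nearest to PCYT2 and TMEM198 (0.983 and 0.982), SLC2A2 to YWHAZ and CAST (0.981 and 0.977), PPP1R3C to PLEKHA2 and UBE3B (0.942 and 0.938) and PC to ARVCF and RPP25L (0.917 and 0.912). TXNIP followed AMOTL2 and NCOA1 (0.913 and 0.912), and FBP1 and GPI had no gene above 0.86, with PRICKLE4 and COLEC11 nearest.

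Other genes of glucose metabolism were read from 5 lists of 125 genes in all, of which 108 were tested, the 10 genes above included. The lists were chosen with earlier results of these data known, so their counts beside the shares of all genes describe and do not test. In the pooled effect of DHA at 24 h, 1 of the 108 rose and 4 fell, against 0.286% higher and 0.942% lower among all genes. None was called for DHA at 6 h or for PRO at 24 h. IGFBP1, a secreted binding protein that insulin represses, was lower by 0.85 on the log2 scale (456 ± 127 CPM without and 253 ± 74.5 with DHA, n = 9; adjusted p = 0.00525 in edgeR). CREB3L3, a liver transcription factor, was higher by 0.63 (adjusted p = 7.84e-04).

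The arrestin-family gene ARRDC3, a relative of TXNIP, was lower with DHA by 0.41 (adjusted p = 0.00756), the transporter SLC2A6 by 0.45 (adjusted p = 0.0145) and the aldolase ALDOC by 0.30 (adjusted p = 0.0387). Of the gluconeogenesis list, 16 genes were tested and none was called with DHA. For time in culture without DHA, 58 of the 108 rose and 16 fell, against 24.3% higher and 24.1% lower among all genes. With DHA the counts were again 58 and 16, against 22.9% and 23%. The counts per list that follow are for samples without DHA. In the glycolysis list 20 of 27 rose and PDHA1 fell (−0.14), and in the list of transport and hexose entry 10 of 17 rose and 2 fell.

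The largest rises without DHA were PFKFB4, an enzyme that sets the level of fructose 2,6-bisphosphate (2.02, from 23.6 ± 1.92 to 96.1 ± 19.7 CPM), and the glucose transporter SLC2A1 (1.68, from 347 ± 27.0 to 1109 ± 151 CPM), with PDK1 (1.58), SLC5A2 (1.501), SLC2A3 (1.49) and PFKFB1 (1.49). SLC5A2 and PFKFB1 were scarce, with mean CPM of 1.05 and 1.92 at 6 h and 3.03 and 5.32 at 24 h. SLC2A1 and SLC2A3 thus rose where the liver transporter gene SLC2A2 fell. In the gluconeogenesis list 7 of 16 rose and 4 fell, against 24.3% and 24.1% of all genes. GOT1 (0.54), SLC25A1 (0.41) and SLC25A11 (0.38) were among those that rose and MPC1 (−0.30), MDH1 (−0.27) and GOT2 (−0.23) among those that fell.

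In the glycogen list 9 of 23 rose and 4 fell, where 24.3% of all genes rose and 24.1% fell. PPP1R3G (0.69, from a mean of only 2.11 to 3.41 CPM), PGM1 (0.59) and PPP1R3E (0.56) rose beside PYGL and PPP1R3C. The glycogen synthase kinase genes GSK3B (−0.31) and GSK3A (−0.26) fell. In the list of sensing and hormone control 12 of 25 rose and 5 fell, with NR0B2 (0.98), IGFBP1 (0.74) and MLXIPL (0.64), which encodes the glucose-responsive factor ChREBP, among the rises. KLF15 (−0.88), NR3C1 (−0.59), the glucocorticoid receptor gene, and PPARGC1A (−0.46), a coactivator of gluconeogenic genes, were the largest falls there. SLC2A8 (−0.25) fell with SLC2A2.

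**Figure D5:**
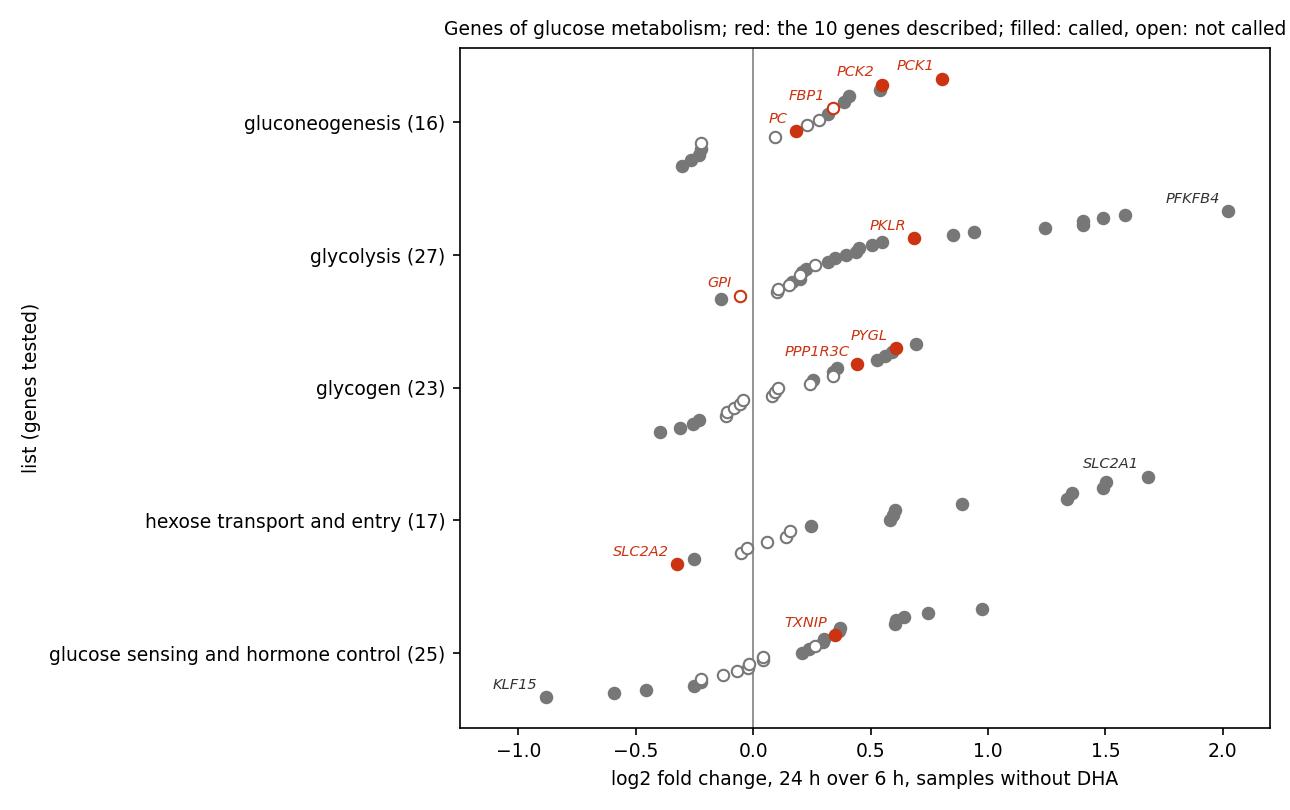
Log2 fold change from 6 h to 24 h in samples without DHA (horizontal axis) for the 108 tested genes of 5 lists, 1 point per gene, sorted within each list; red points are the 10 genes described and filled points were called. PFKFB4 and SLC2A1 lie farthest to the right, at 2.02 and 1.68, and KLF15 farthest to the left, at −0.88.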

How the data were processed

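RNA of HepG2 cells was made into TruSeq v2 libraries, which do not mark strand, and sequenced by the authors. The deposited table holds counts per RefSeq gene, not normalized, made by the authors with STAR on hg19 and the iRNA-seq pipeline. The STAR version is not given in the sources used here. Groups were read from the labels.

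Counts were scaled by TMM, filtered with filterByExpr and tested with the quasi-likelihood F test of edgeR 4.0.16 in R 4.3.3, in 1 fit of 18 samples per time and 1 fit of all 36 for comparisons across times. This left 11872 genes at 6 h, 11893 at 24 h and 12046 in the joint fit. The call needed an adjusted p no higher than 0.05 together with a mean log2 CPM over 0. SE is the log2 fold change divided by the square root of F, and 95% intervals use the t quantile. RPKM used the length in the table. No 2 libraries of a group agreed within sampling noise (lowest chi-square per degree of freedom 2.21 in 36 pairs). Scripts were tested on simulated data.

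The 10 genes and the pathway lists were chosen with earlier results of these data known. Of the lists, the genes named are all those called for pooled DHA at 24 h and, for time without DHA, up to 3 with the largest change in each direction per list, and the genes most like a member are the 2 with the highest Pearson's r at an average log2 CPM above 2. Alternatives were DESeq2 1.42.0 (Wald), upper-quartile scaling, DESeq2 size factors in edgeR, no low-count filter, library series as a term, a replicate block, only the groups compared, the deep library thinned, and each sample left out. Protein sequences were not used here, and 1 gene that the naming rule picks is not reported here.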

Additional observations from a re-analysis of the deposited data

How the results depend on the processing

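Of 217 counts of called members under alternatives other than leaving out a sample, 4 moved by over 1.5 times or to or from 0, and of 336 with a sample left out, 7 did. The sign of no called change reversed. Single calls changed more often than these counts: over all alternatives the members called for time ranged from 6 to 9 without DHA (8 as reported) and from 5 to 7 with DHA (6 as reported). For PRO against Ctrl at 24 h the count was 0 in the edgeR test, 1 with DESeq2 and 1 without the low-count filter (PPP1R3C in both). For pooled PRO at 24 h it was 0, against 1 with DESeq2 (TXNIP) and 2 with the replicate block (TXNIP at an adjusted p of 0.0234 and PPP1R3C at 0.0389). For DHA+PRO against Ctrl at 24 h the count of 1 became 0 to 0 with any 1 sample left out, which leaves fewer samples, and for pooled DHA at 24 h the count of 0 became 0 to 1. The causes of the other changes were not tested.

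The labels number replicates 1 to 3 in each group without saying what a number shares, and the columns of the deposited table carry culture numbers that follow them. Deviations of same-numbered samples correlated by 0.256 on average at 6 h (lowest −0.116) and 0.153 at 24 h (lowest −0.182), so the numbers were not taken as pairs, although 16 of 18 samples at 6 h and 17 of 18 at 24 h were closest to their own number. These correlations do not exclude that a number marks 1 shared experiment, and the main tests make no allowance for that. With the block, the biological coefficient of variation in edgeR (its estimate of spread between replicates) was lower. It was 0.08254 against 0.1052 for the 24 h fit, and 0.09688 against 0.1409 for the 6 h fit. The block changed no other count of members called. Over all genes, pooled PRO at 24 h called 1, 5 with DESeq2 and 20 with the block. A fit of only the groups compared was not run across times, and thinning does not apply at 6 h. FBP1, with 6 to 92 counts per library, is limited most by depth. Intervals cover the spread between these cultures of 1 cell line.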
